A study of Mus musculus with 82 samples.

Results

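The genes described are 9 members of the HoxA cluster on mouse chromosome 6, Hoxa2, Hoxa3, Hoxa4, Hoxa5, Hoxa6, Hoxa7, Hoxa9, Hoxa10 and Hoxa11. They were chosen by symbol from the 55376 genes of the count files, and the histone peaks named for them and the accessible regions over them were added. Hoxa13, which lies in the same cluster, was not among the chosen genes and was read only with the other cluster transcripts. The series profiled hematopoietic stem cells (HSCs) of young (YHSCs) and old (OHSCs) wild-type male C57BL/6J mice by RNA-seq, ATAC-seq and histone ChIP-seq, to learn how the chromatin and the transcriptome of the stem cell differ with age. RNA-seq was read in 4 YHSC and 8 OHSC libraries, and in 2 libraries each of common myeloid progenitors (CMP), granulocyte-macrophage progenitors (GMP) and megakaryocyte-erythroid progenitors (MEP) of young wild-type mice. YHSCs came from pooled mice and OHSCs from individual mice in the third year of life, and both were sorted from the LSK fraction of bone marrow (lineage-negative, Sca-1+ and c-kit+) by lack of CD34 and Flk2 and presence of CD150.

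A second experiment used OHSCs that had been transduced with a lentivirus carrying shRNA1 or shRNA2, both directed at a short variant of Btaf1, a TATA-box-binding-protein associated factor, or a control shRNA (shControl). The cells were then either kept in culture for several days or transplanted, after a short culture, into lethally irradiated young female CD45.1 recipients, from which CD45.2+ donor cells were sorted again as LSK CD48- CD150+. There were 2 libraries for each shRNA in each experiment, so all 12 of these libraries came from old donors and all had been cultured and infected. The sort gate of the transplanted cells differed from that of the YHSCs and OHSCs. In both experiments the study describes a sort for GFP, which marks transduced cells. Each transplanted library was, per the study, a pool of cells from several recipients. The sources used here do not tie the cultured or the progenitor libraries to separate cultures or animals, so for these p-values measure the spread between libraries, which may be technical. The methods give the YHSCs and OHSCs and the transplanted HSCs different RNA extractions, kits and sequencers, and the labels and methods disagree on the kits, so levels set side by side across these experiments carry that difference too.

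Hox genes encode homeodomain transcription factors that set position along the body axis in the embryo. Their order along the chromosome matches the order in which they are switched on. In adult blood, the middle and posterior HoxA genes are expressed in stem and early progenitor cells and are turned down as cells mature. HOXA9, the best known of them, binds DNA together with cofactors of the TALE class, PBX and MEIS, and its forced expression with Meis1 causes leukemia in mice. The cluster is a textbook target of 2 opposing systems, the MLL (Kmt2a) complexes that place H3K4 methylation and the Polycomb complexes that place H3K27me3.

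In GENCODE M21 on GRCm38 (the build also called mm10, which the files use) the 9 genes span chr6:52162417-52245810, a stretch of 83.394 kb, and all are on the minus strand, so the cluster is transcribed from Hoxa11 at the high coordinates toward Hoxa2 at the low ones. Hoxa2 lies at chr6:52162417-52164831, Hoxa3 at chr6:52169062-52213336, Hoxa4 at chr6:52189671-52191753 and Hoxa5 at chr6:52201754-52204587. Hoxa6 lies at chr6:52206288-52208722, Hoxa7 at chr6:52214491-52221854, Hoxa9 at chr6:52223100-52231089, Hoxa10 at chr6:52231197-52240854 and Hoxa11 at chr6:52242106-52245810. Hoxa3 has a distal start whose transcript runs over Hoxa4, Hoxa5 and Hoxa6. The exons of Hoxa5, Hoxa6 and Hoxa10 share no base with another annotated gene. Hoxa7 shares 20.4% of its exon bases with the antisense transcript Hoxaas3, Hoxa9 shares 1.52% with the microRNA gene Mir196b, and Hoxa11 shares 35.0% with antisense Hoxa11os. Hoxa2 (15.04%), Hoxa3 (27.1%) and Hoxa4 (16.0%) share exon bases with antisense or read-through transcripts. No source used here gives the strand setting of the counting, so reads in these shared bases cannot be assigned with certainty to either partner.

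The sequences just upstream of several starts are shown because they lie in parts of the cluster with different chromatin marks, described further on. Each is the 250 bases before an annotated start (270 for the last), read from the GRCm38 genome of RefSeq on the minus strand and written 5′ to 3′ in lower case. Capitals mark matches, on either strand, to 8 short motifs: HOX-PBX TGATTNAT, MEIS TGACAG, CTCF core AGGGGGC, RUNX TGTGGT, the CCAAT box by its letters, GC box GGGCGG, the GATA motif searched as AGATAA, and the TATA box searched as TATAAA. The windows are Hoxa2 at chr6:52164832-52165081, Hoxa7 at chr6:52217506-52217755, the proximal start of Hoxa10 at chr6:52234940-52235189, the distal start of Hoxa10 at chr6:52240855-52241104 and Hoxa11 at chr6:52245811-52246060. The last sequence lies between Hoxa7 and Hoxa9, at chr6:52221855-52222124, upstream of the farthest annotated Hoxa7 start, inside the accessible region with the highest level in the cluster.
Hoxa2: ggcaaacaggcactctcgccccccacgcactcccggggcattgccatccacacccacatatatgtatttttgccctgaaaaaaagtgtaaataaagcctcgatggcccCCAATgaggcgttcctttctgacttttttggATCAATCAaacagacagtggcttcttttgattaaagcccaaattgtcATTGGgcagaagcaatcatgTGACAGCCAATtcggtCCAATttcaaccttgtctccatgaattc
Hoxa7: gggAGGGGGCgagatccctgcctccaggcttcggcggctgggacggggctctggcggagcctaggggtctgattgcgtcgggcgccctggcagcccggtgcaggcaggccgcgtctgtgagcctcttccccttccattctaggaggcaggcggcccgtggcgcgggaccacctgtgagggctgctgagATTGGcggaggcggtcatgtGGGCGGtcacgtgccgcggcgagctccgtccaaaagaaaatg
Hoxa10 proximal: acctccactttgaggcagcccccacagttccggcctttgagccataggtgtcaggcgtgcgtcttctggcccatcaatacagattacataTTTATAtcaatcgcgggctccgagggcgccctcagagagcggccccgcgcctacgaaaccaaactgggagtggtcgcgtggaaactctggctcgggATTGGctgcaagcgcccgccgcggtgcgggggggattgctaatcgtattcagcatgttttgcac
Hoxa10 distal: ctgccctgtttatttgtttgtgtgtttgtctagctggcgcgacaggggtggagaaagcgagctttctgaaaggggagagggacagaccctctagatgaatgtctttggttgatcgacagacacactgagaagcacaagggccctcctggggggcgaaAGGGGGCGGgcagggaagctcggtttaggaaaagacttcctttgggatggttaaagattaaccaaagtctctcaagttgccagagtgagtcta
Hoxa11: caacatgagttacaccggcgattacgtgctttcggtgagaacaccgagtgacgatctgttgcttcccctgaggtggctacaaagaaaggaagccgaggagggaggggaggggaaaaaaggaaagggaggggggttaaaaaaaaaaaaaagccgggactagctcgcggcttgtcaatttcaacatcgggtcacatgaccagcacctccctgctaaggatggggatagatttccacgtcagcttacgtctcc
Between Hoxa7 and Hoxa9: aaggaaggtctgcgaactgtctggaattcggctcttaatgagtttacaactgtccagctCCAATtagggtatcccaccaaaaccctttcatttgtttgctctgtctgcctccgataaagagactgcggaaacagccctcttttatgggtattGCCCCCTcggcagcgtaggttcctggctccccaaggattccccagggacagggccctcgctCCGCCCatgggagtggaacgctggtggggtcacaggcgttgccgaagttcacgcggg

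The upstream sequence of Hoxa2 held 6 matches, which were 4 CCAAT boxes, 1 MEIS match beginning 44 bases before the start and 1 HOX-PBX match beginning 111 bases before it. HOX-PBX matches were found in 2.82% and MEIS matches in 15.9% of 32851 windows of the same length before annotated starts. The Hoxa7 window held 3 matches (a CTCF core, a CCAAT box and a GC box) and 23 CpG pairs. The proximal Hoxa10 window held a TATA box match, on the opposite strand and 160 bases before the start, a CCAAT box and 20 CpG pairs. In the distal Hoxa10 window, a CTCF core and a GC box overlapped each other, and there were 7 CpG pairs. None of the 8 motifs was found in the Hoxa11 window, which says only that these letters are not in those 250 bases. The sequence between Hoxa7 and Hoxa9 held a CTCF core, a CCAAT box and a GC box. Among all windows of 250 bases, a CTCF core was present in 9.43%, a CCAAT box in 33.8%, a GC box in 32.7%, a TATA box in 12.4%, a GATA match in 9.99% and a RUNX match in 14.0%. A match is a description of letters and not evidence that a factor binds.

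The YHSC and OHSC libraries held 20475764 to 24654742 counted reads, the progenitor libraries 33177394 to 36510850, the cultured libraries 37292602 to 42737054 and the transplanted libraries 37601706 to 42142361. HSC markers summed to 4807 to 4874 CPM (reads of a gene scaled to a common library total) in YHSCs and 4367 to 4836 CPM in OHSCs, against 1023 to 1043 CPM in CMP, 549.7 to 614 CPM in GMP and 538.9 to 593 CPM in MEP. The progenitor libraries carried their own marker genes, with erythroid markers at 6816 to 7251 CPM in MEP against 248.3 to 315.9 CPM in YHSCs, although megakaryocyte markers in the MEP libraries were only 24.3 to 25.1 CPM. GMP markers were at 56550 to 57470 CPM in GMP and 126.8 to 155 CPM in YHSCs. In CMP they were also high, at 16020 to 19330 CPM, and their part in the HoxA levels of CMP was not tested. Of mature-cell lists, B cell markers summed to 120.9 to 250.3 CPM in YHSCs, 34.58 to 200 CPM in OHSCs and 285 to 298.7 CPM in CMP, macrophage markers to 23.94 to 41.22 CPM in YHSCs and 13.5 to 114.4 CPM in OHSCs, and T cell markers to at most 3.23 CPM in either age. B cell markers were at 225.4 to 301.5 CPM in GMP and 3.06 to 4.87 CPM in MEP. Stroma markers were at 92.16 to 106.6 CPM in CMP against 28.91 to 35.41 CPM in YHSCs. Btaf1 itself, counted over the whole gene so that the short variant cannot be told from the rest, was 137 and 141 CPM in the cultured shControl libraries against 110 to 119 CPM with either shRNA. After transplantation it was 161 and 166 CPM in shControl against 118 to 139 CPM with either shRNA. In these bulk samples, fewer cells of a type and less RNA per cell cannot be told apart.

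In YHSCs most reads of the cluster came from its middle and posterior part. Hoxa9 stood at 111, 113, 112 and 109 CPM in the 4 libraries (mean 111 ± 1.54 CPM, SD, n = 4). Hoxa10, a posterior Hox gene next to it, stood at 46.2, 46.8, 51.0 and 46.6 CPM (47.7 ± 2.24, SD, n = 4). Hoxa7 was at 38.5, 38.1, 37.5 and 37.6 CPM (37.9 ± 0.45, SD, n = 4), the smallest spread relative to its mean among the 9 genes in YHSCs. Hoxa5, a middle member, reached 18.4, 16.9, 16.7 and 16.7 CPM, and Hoxa3 reached 12.4, 14.7, 12.6 and 12.8 CPM. Hoxa6 was at 3.04 to 3.72 CPM and Hoxa2, the most anterior member, at 1.45 to 2.21 CPM. The remaining members were close to the limit of detection, with Hoxa4 at 0.29 to 0.74 CPM (7 to 16 reads) and Hoxa11 at 0 to 2 reads per library.

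**Figure D1:**
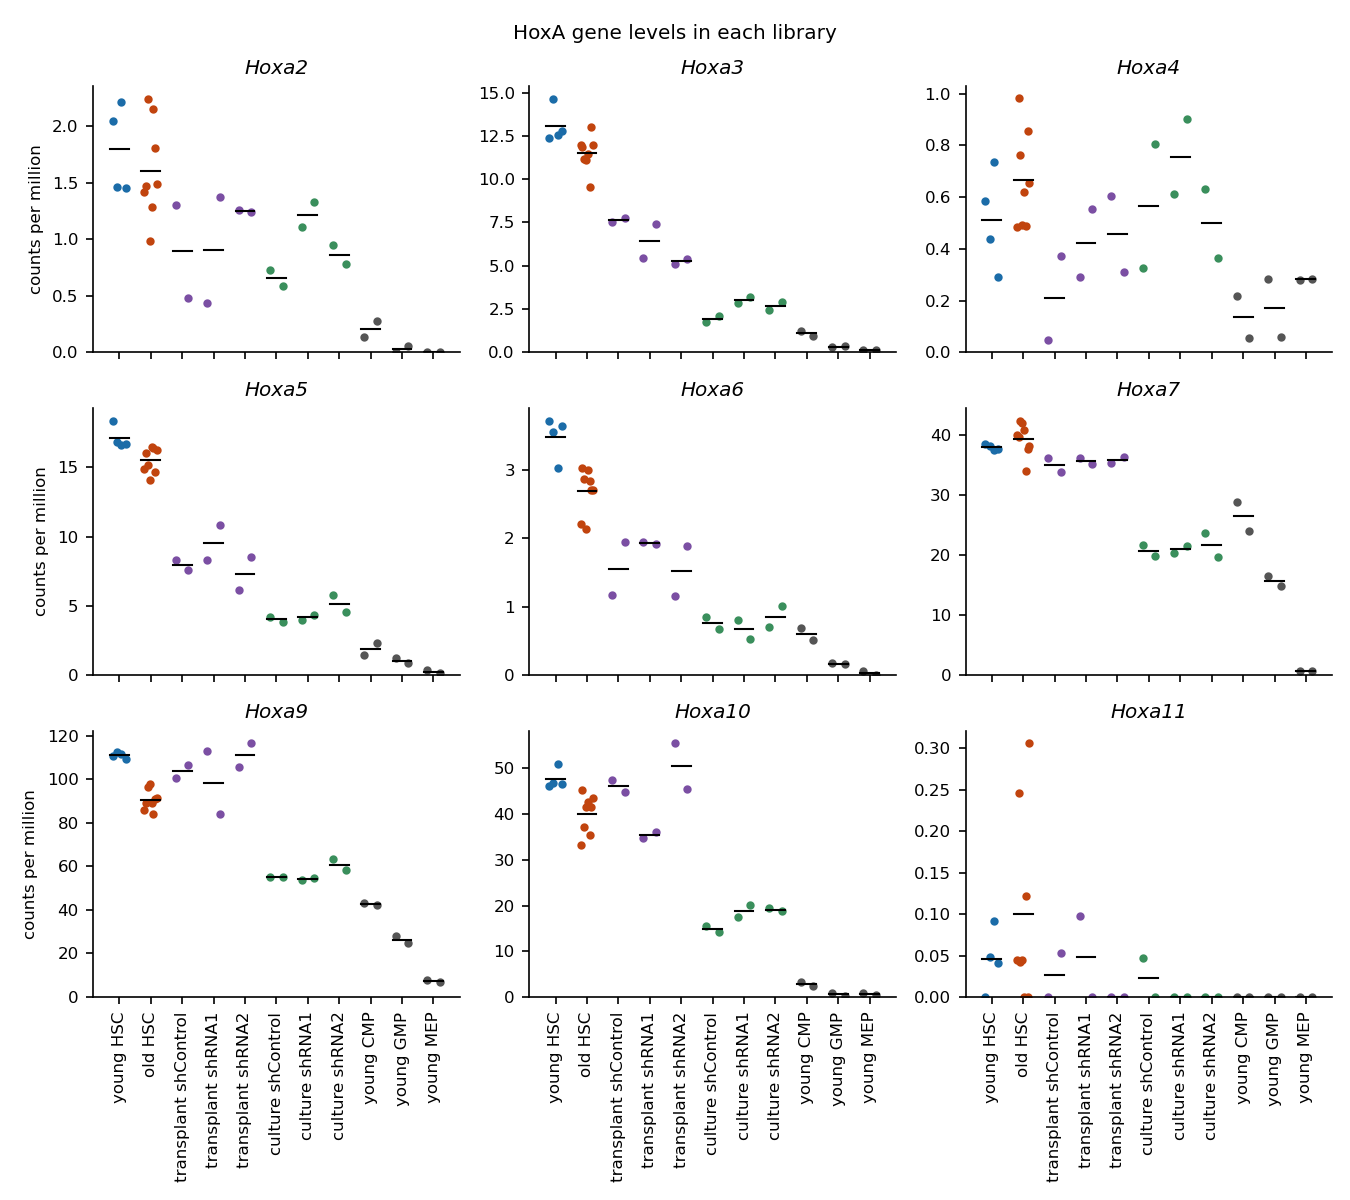
Level in CPM (linear axis, one scale per gene) of each HoxA gene in every RNA-seq library, with dots for libraries and a bar for the mean of each group. Hoxa9 lies between 109 and 113 CPM in the young HSC libraries and between 6.68 and 7.69 CPM in MEP, and Hoxa4 and Hoxa11 stay below 1 CPM in every library.

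Levels between genes were compared per kilobase of exon. On this scale Hoxa9 was first in YHSCs (mean 19.9 CPM per kb), followed by Hoxa10 (14.6), Hoxa7 (13.2), Hoxa5 (9.14), Hoxa6 (4.00), Hoxa3 (2.18), Hoxa2 (1.01), Hoxa4 (0.32) and Hoxa11 (0.02). The ranges of Hoxa10 (14.1 to 15.6) and Hoxa7 (13.1 to 13.4) did not overlap, nor did those of Hoxa9 (19.6 to 20.2) and Hoxa10. The order did not follow the order on the chromosome, since Hoxa4 (0.18 to 0.46) lay below both of its neighbours, Hoxa3 (2.06 to 2.44) and Hoxa5 (8.88 to 9.79), and Hoxa6 (3.48 to 4.26) lay below Hoxa5 and Hoxa7. Hoxa9, Hoxa10 and Hoxa7 made up 30.9%, 22.7% and 20.5% of the summed per-kilobase level of the members. That sum was 63.1 to 64.9 CPM per kb in YHSCs, 52.9 to 59.1 in OHSCs, 52.6 to 52.9 in transplanted shControl cells, 25.04 to 26.23 in cultured shControl cells, 18.8 to 20.7 in CMP, 10.4 to 12.1 in GMP and 1.81 to 2.32 in MEP.

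The order of the groups differed between members. Hoxa9 was highest in YHSCs, where its range overlapped that of the transplanted shRNA1 and shRNA2 libraries (83.98 to 116.8 CPM), and then came transplanted shControl (101 and 107 CPM), OHSCs (84.1 to 97.9, median 90.1 CPM), the cultured libraries (53.9 to 63.4 CPM), CMP (43.0 and 42.1 CPM), GMP (27.9 and 24.8 CPM) and MEP (7.69 and 6.68 CPM). From OHSCs downward, the only neighbouring groups with overlapping ranges were the cultured shRNA and shControl libraries. Hoxa7 had another order. It was as high in OHSCs (34.03 to 42.32, median 39.8 CPM) as in YHSCs within the spread, and CMP (28.7 and 24.0 CPM) stood above the cultured cells (19.6 to 23.6 CPM). Hoxa10 in CMP was down to 3.29 and 2.47 CPM, below the cultured cells (14.1 to 20.1 CPM), and did not differ between MEP (0.93 and 0.42 CPM) and GMP (0.96 and 0.30 CPM) beyond its spread. For Hoxa4 the ranges of nearly all neighbouring groups overlapped, and no order can be read from it.

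With age, no HoxA gene crossed the fold change of 1.5 that was asked for together with an adjusted p below 0.05 (edgeR's quasi-likelihood test with Benjamini-Hochberg adjustment over 21522 genes), where 4.69% of all genes were called higher and 2.83% lower in OHSCs. DESeq2 likewise called none of the 8 members tested, and 3 of them had an unadjusted p below 0.05 in edgeR, as did 30.0% of all genes. Hoxa11 was not tested because of its low counts. Hoxa9 was lower in OHSCs by a small and even amount. All 8 OHSC libraries (84.1 to 97.9 CPM, mean 90.6 ± 4.72, SD, n = 8) lay below all 4 YHSC libraries (109 to 113 CPM), with a log2 fold change of -0.25 (SE 0.04, edgeR adjusted p = 6.23e-05). Hoxa10 ranged from 33.3 to 45.2 CPM (median 41.5) in OHSCs, below every YHSC library, with a log2 fold change of -0.21 (SE 0.07, edgeR adjusted p = 0.0271). That adjusted p rose above 0.05 when YHSC replicate 1 (0.0602), 3 (0.135) or 4 (0.0650) was left out. The log2 fold changes were then -0.22, -0.18 and -0.21. At an adjusted p below 0.05 with no fold change asked for, 20.6% of all genes passed.

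Hoxa6 was at 2.15 to 3.03 CPM (median 2.78) in OHSCs against 3.04 to 3.72 CPM in YHSCs, with a log2 fold change of -0.34 (SE 0.15, unadjusted p = 0.0348, edgeR adjusted p = 0.127). Hoxa5 was at 14.1 to 16.5 CPM in OHSCs, also without overlap with YHSCs, but its log2 fold change was only -0.11 (SE 0.07, edgeR adjusted p = 0.387). In all, 4 members had ages that did not overlap, as did 18.9% of the 16526 genes with at least 1 CPM on average. Hoxa7 had a log2 fold change of 0.09 (95% interval -0.02 to 0.20, edgeR adjusted p = 0.302). Hoxa3 (-0.14), Hoxa2 (-0.12) and Hoxa4 (0.42, SE 0.36) gave edgeR adjusted p-values of 0.265, 0.803 and 0.498. The median log2 fold change over the 8 tested members was -0.13, against -0.01 over all genes tested. GMP markers (126.8 to 155 CPM in YHSCs, 292.5 to 337.4 CPM in OHSCs) and megakaryocyte markers (488 to 507.8 against 855.9 to 1185 CPM) were higher in every OHSC library than in any YHSC library. CMP and multipotent progenitor markers were lower in every OHSC library (134.9 to 173 CPM) than in any YHSC library (204.7 to 234.2 CPM). The part of these cell markers in the small HoxA differences was not tested.

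**Figure D2:**
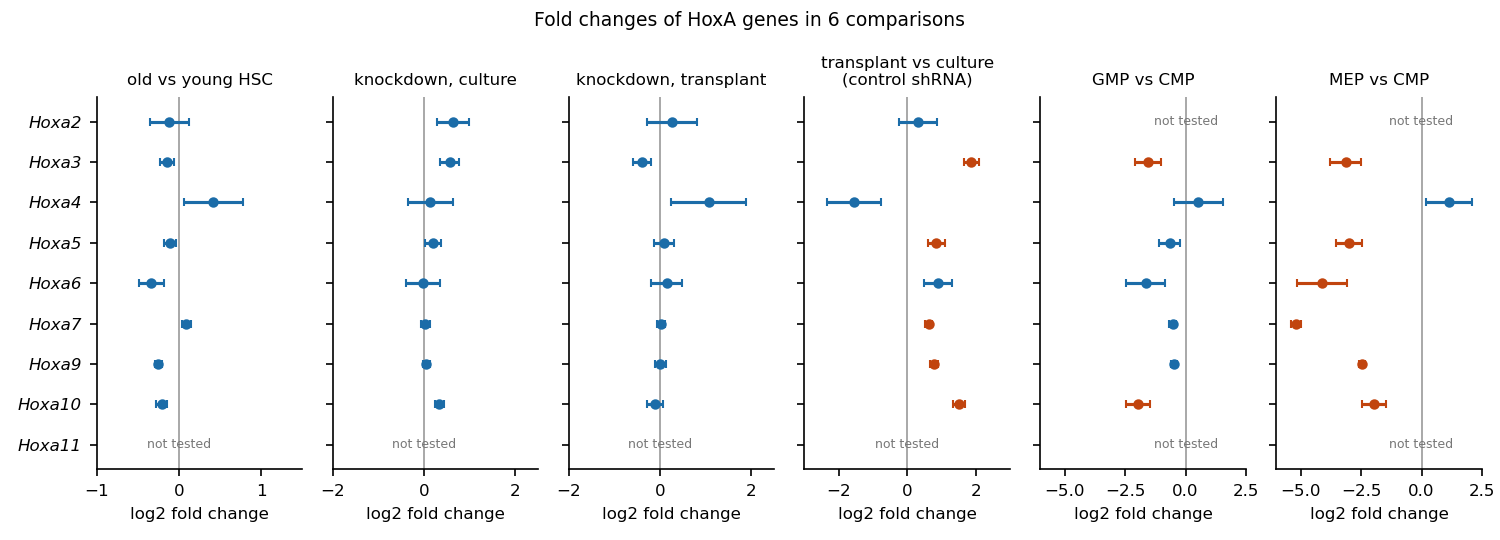
Log2 fold change of each tested HoxA gene in 6 comparisons, with bars of 1 standard error and axis ranges that differ between panels. Red marks genes called by the fold change and p-value asked for in that comparison and blue those not called. None is called with age or after either knockdown, 5 are higher in transplanted than in cultured control cells, and 6 are lower in MEP than in CMP.

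In the HoxB cluster, another Hox cluster expressed in HSCs, some genes were called with age. Of its 9 tested genes, 4 rose in OHSCs (all genes 4.69%) and none fell, namely Hoxb6 (4.21 to 9.58 CPM, log2 fold change 1.23), Hoxb7 (0.98 to 4.23 CPM, 2.14), Hoxb8 (0.21 to 1.28 CPM, 2.62) and Hoxb9 (3.58 to 8.25 CPM, 1.24), each at an edgeR adjusted p below 0.05. Hoxb8 and Hoxb9 were outside the rule for named genes and are named after their values were seen. The median log2 fold change of the HoxB genes was 0.48. Their summed level was 59.1 to 67.4 CPM in YHSCs and 80.7 to 96.8 CPM in OHSCs. The difference between the clusters was not itself tested.

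Against the progenitors, most of the tested HoxA genes were called higher in YHSCs, but so were many genes. Hoxa4 was called against none of the 3 progenitors and Hoxa7 not against CMP, and Hoxa11 was not tested. In the fit of YHSCs with CMP, GMP and MEP the median gene was higher in YHSCs by 0.49, 0.70 and 1.11 on the log2 scale, and 42.8%, 47.3% and 52.7% of 25716 genes were called higher and 21.6%, 24.0% and 24.5% lower, so that fold changes and medians of the members are also given relative to the median gene. Percents of the YHSC mean, bounds and ratios of reads are not shifted in this way. The YHSC and progenitor libraries were sequenced to different depths, and the progenitor libraries alone carry a batch label. The methods describe the HSC libraries but not those of the progenitors, so further differences in preparation are not known. None of this can be told apart from the cell type. Against CMP, 6 of 8 tested members were called higher in YHSCs (Hoxa2, Hoxa3, Hoxa5, Hoxa6, Hoxa9 and Hoxa10). Against GMP and against MEP, 7 of 8 were called higher, and only Hoxa4 was not. Relative to the median gene, Hoxa9 fell short of 1.5-fold against CMP (0.54) and Hoxa7 against GMP (0.03), which left 5, 6 and 7 members. The share of all genes called after the same shift is not given here. The median log2 fold change of the members was 2.46 against CMP, 3.69 against GMP and 5.75 against MEP, which came to 1.97, 3.0 and 4.64 relative to the median gene.

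The members parted ways already in CMP. Mean Hoxa10 in CMP was 6.04% of the YHSC mean (log2 fold change of YHSCs over CMP 3.69, SE 0.23, edgeR adjusted p = 2.41e-09, and 3.20 relative to the median gene), Hoxa3 was 8.45% (2.71 relative to the median gene) and Hoxa5 was 10.9% (2.36 relative to the median gene). Hoxa9 in CMP kept 38.3% of its YHSC mean, with a log2 fold change of 1.03 (SE 0.07, edgeR adjusted p = 2.72e-11) that came to 0.54 relative to the median gene. Hoxa7 kept 69.6% and was not called, with a log2 fold change of 0.17 (SE 0.10, edgeR adjusted p = 0.128) that came to -0.32 relative to the median gene, so its direction depends on the scaling. DESeq2 gave it an adjusted p of 0.00895. In GMP, Hoxa7 was at 41.2%, Hoxa9 at 23.7%, Hoxa5 at 5.91%, Hoxa3 at 2.46% and Hoxa10 at 1.32% of the YHSC mean. In MEP no member other than Hoxa4 kept more than the 6.47% of Hoxa9, and Hoxa7 was at 1.75%.

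Low counts bound some of these ratios. Hoxa2 had 162 reads over the 4 YHSC libraries and 0 reads in both MEP libraries, so it was at least 21.2-fold higher in YHSCs, taking 3 reads per MEP library as the limit that a count of 0 allows. With 2 reads over the GMP libraries, Hoxa2 gave a ratio of 61.7 (exact 95% interval 16.8 to 513.5, counting error only). Hoxa6, with 2 reads over the MEP libraries, gave a ratio of 124.1 (34.1 to 1029). Hoxa11 had 0 reads in all 6 progenitor libraries, and with at most 2 reads in a YHSC library no difference was detectable at this depth.

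**Figure D3:**
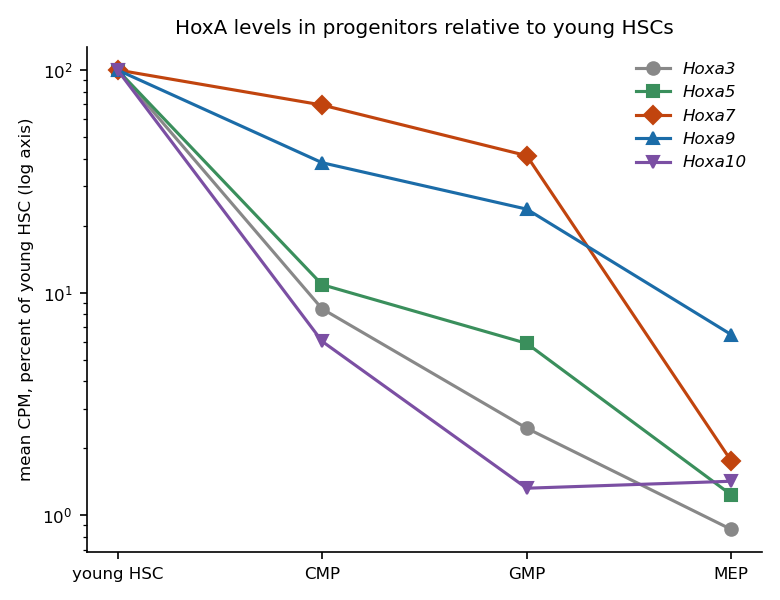
Mean level (CPM) of 5 HoxA genes in CMP, GMP and MEP as a percent of the young HSC mean, on a log axis, with lines joining the values of one gene. Hoxa7 stays at 69.6% in CMP and 41.2% in GMP and is at 1.75% in MEP, whereas Hoxa10 is already at 6.04% in CMP.

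Among the progenitors, MEP stood apart. In MEP, 6 of 7 tested members were called lower than in CMP (29.2% of all genes were called lower and 17.5% higher, and no member was called higher). Hoxa7 fell the most, from 28.7 and 24.0 CPM in CMP to 0.68 and 0.65 CPM in MEP (36.5-fold, log2 fold change -5.19, SE 0.20, edgeR adjusted p = 6.10e-11). Hoxa9 fell 5.46-fold (43.0 and 42.1 to 7.69 and 6.68 CPM, log2 fold change -2.45, SE 0.12, edgeR adjusted p = 7.88e-10). Hoxa6 (-4.12, SE 1.03), Hoxa3 (-3.14, SE 0.63), Hoxa5 (-2.999, SE 0.52) and Hoxa10 (-1.97, SE 0.49) also fell, with edgeR adjusted p-values between 0.000206 and 0.00351. Hoxa4 was the exception, with 10 reads in each MEP library against 8 and 2 in CMP (log2 fold change 1.124, SE 0.95, edgeR adjusted p = 0.319). Hoxa2 was not tested among the progenitors and had 15 reads over both CMP libraries and none in MEP. The median log2 fold change over the members tested was -3.0, against -0.07 over all genes. B cell markers were at 3.06 to 4.87 CPM in MEP against 285 to 298.7 CPM in CMP. GMP markers were at 15.45 to 39.96 against 16020 to 19330 CPM, and stroma markers at 1.80 to 2.94 against 92.16 to 106.6 CPM. Macrophage markers were at 0.51 to 0.68 against 9.70 to 11.27 CPM. Erythroid markers went the other way (6816 to 7251 against 432.9 to 460.1 CPM). The part of these markers in the HoxA differences was not tested.

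Between GMP and CMP the members differed less. Hoxa10 (log2 fold change -1.96, SE 0.50, edgeR adjusted p = 0.00837) and Hoxa3 (-1.56, SE 0.55, edgeR adjusted p = 0.0437) were called lower in GMP, in a comparison where 10.5% of all genes were called lower and 6.24% higher. Both calls were fragile. Each was lost in fits that left 1 library in a group, and for these only fold changes are given. Without CMP replicate 1 or GMP replicate 2 the log2 fold change of Hoxa10 was -1.74 and -1.37. For Hoxa3 it ran from -1.34 to -1.755 with single libraries left out, and its call was also lost with DESeq2 (adjusted p = 0.110). Hoxa7 (log2 fold change -0.54, edgeR adjusted p = 0.00951) and Hoxa9 (-0.47, edgeR adjusted p = 0.00437) were lower in GMP by less than 1.5-fold, and 34.8% of all genes had an adjusted p below 0.05. Without CMP replicate 1 or GMP replicate 2 Hoxa7 missed the p threshold, with log2 fold changes of -0.40 and -0.47. Hoxa5 (-0.65) and Hoxa6 (-1.66) gave edgeR adjusted p-values of 0.281 and 0.132. MEP against GMP gave 3 members lower (27.2% of all genes were, and 16.6% were higher), which were Hoxa7 (-4.65), Hoxa9 (-1.98) and Hoxa5 (-2.35). That comparison gave 5 when the YHSC libraries were added to the fit, and the share of all genes in that fit is not given here. Hoxa10 did not separate these cell types, with a log2 fold change of -0.01 (95% interval -1.08 to 1.06).

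The balance of Hoxa7 and Hoxa9 is given as a description, since it was noticed after the values had been seen. Per kilobase, the ratio of Hoxa7 to Hoxa9 was 0.65 to 0.67 in YHSCs and 0.79 to 0.90 in OHSCs. It was above 1 in CMP (1.108 to 1.296) and GMP (1.15 to 1.16), and 0.17 to 0.19 in MEP. In the transplanted shControl libraries it was 0.62 to 0.69 and in the cultured shControl libraries 0.69 to 0.76, both below every OHSC library, although these cells too came from old donors. With shRNA1 or shRNA2 it was 0.65 to 0.76 in culture and 0.60 to 0.81 after transplantation, so the transplanted range reached into that of the OHSCs. The ratio of Hoxa10 to Hoxa9 was 0.71 to 0.78 in YHSCs, 0.10 to 0.13 in CMP and 0.02 to 0.06 in GMP. The exon bases that Hoxa7 shares with Hoxaas3 enter its level in each of these ratios.

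**Figure D4:**
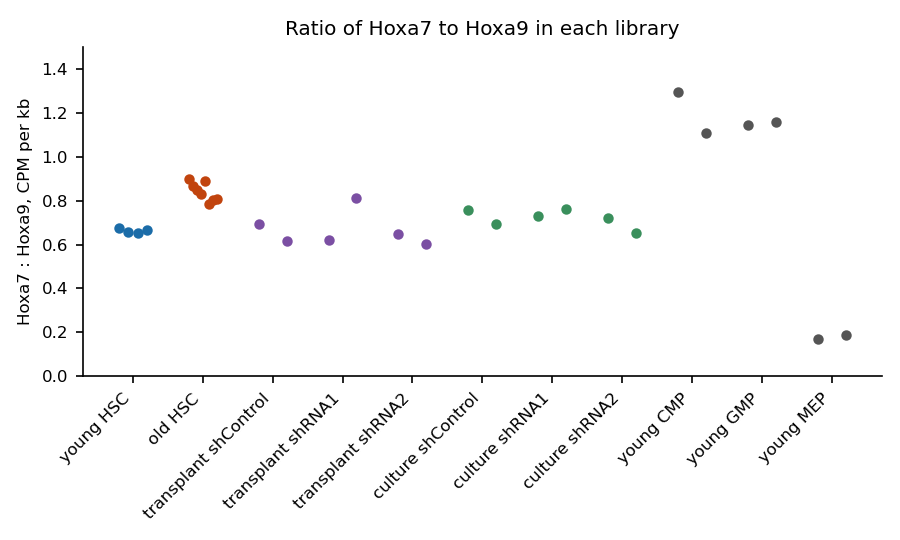
Ratio of Hoxa7 to Hoxa9, both in CPM per kb of exon, in each RNA-seq library (1 dot per library, linear axis). Young HSC libraries lie between 0.65 and 0.67, old HSC libraries between 0.79 and 0.90, CMP and GMP above 1, and MEP between 0.17 and 0.19.

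HSCs that had been transplanted and sorted again carried more HoxA RNA than HSCs that stayed in culture. With shControl in both, 5 of 8 tested members were called higher after transplantation and none lower, where 13.7% of 21443 genes were called higher and 11.2% lower. Hoxa3 was at 1.73 and 2.09 CPM in culture and 7.52 and 7.77 CPM after transplantation (log2 fold change 1.87, SE 0.22, edgeR adjusted p = 1.17e-05). Hoxa10 was at 15.5 and 14.1 CPM in culture and 47.4 and 44.8 CPM after transplantation (log2 fold change 1.503, SE 0.18, edgeR adjusted p = 1.54e-05). Hoxa9 stood at 55.1 CPM in both cultured libraries against 101 and 107 CPM (log2 fold change 0.78, SE 0.13, edgeR adjusted p = 0.000240). None of these ranges overlapped.

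Hoxa7 was at 21.6 and 19.7 CPM in culture and 36.1 and 33.8 CPM after transplantation (log2 fold change 0.63, SE 0.10, edgeR adjusted p = 0.000229), and Hoxa5 at 4.19 and 3.84 against 8.28 and 7.58 CPM (0.85, SE 0.24, edgeR adjusted p = 0.0118). Without cultured shControl replicate 2 or transplanted shControl replicate 1, which left 1 library in that group, the call of Hoxa5 was lost. Its log2 fold change was then 0.78 and 0.79. Hoxa6 (log2 fold change 0.90), Hoxa2 (0.31) and Hoxa4 (-1.56) gave edgeR adjusted p-values of 0.0874, 0.690 and 0.127, and without transplanted shControl replicate 2, 1 member was called lower. The median over the members was 0.81, against 0.03 over all genes. HSC markers were 2025 to 2062 CPM in the cultured and 3577 to 3668 CPM in the transplanted controls, and megakaryocyte markers 1252 to 1288 against 429.1 to 609.9 CPM. The transplanted controls were also lower, without overlap, in CMP and multipotent progenitor markers (550.6 to 551 against 309.6 to 421.9 CPM), erythroid markers (237.8 to 247 against 118.7 to 174.7 CPM) and stroma markers (28.58 to 35.66 against 14.97 to 18.48 CPM). They were higher in GMP markers (157.5 to 164.3 against 183.9 to 285.1 CPM), endothelial markers (55.48 to 55.91 against 125.9 to 134.1 CPM), B cell markers (17.48 to 17.83 against 26.97 to 29.12 CPM) and macrophage markers (0 to 0.0468 against 9.254 to 9.946 CPM). T cell markers were below 1 CPM in both. Their part in the result was not tested. Time, environment and sort gate all went with the experiment and cannot be told apart. The RNA extraction and sequencer are stated for the transplanted HSCs and not for the cultured cells, so a difference in preparation cannot be told apart from them either.

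Knockdown of the short Btaf1 variant in culture called none of the 8 tested HoxA genes by a fold change above 1.5 with an unadjusted p below 0.05 (edgeR), a rule that 2.45% of 19763 genes met upward and 0.972% downward. The cultured and transplanted controls in these comparisons are those of the comparison above. At an unadjusted p below 0.05 alone there were 2 members, and 15.3% of all genes. Hoxa10 was at 15.5 and 14.1 CPM in shControl and at 17.5, 20.1, 19.5 and 18.8 CPM with shRNA1 or shRNA2, so every knockdown library lay above every control (log2 fold change 0.34, SE 0.10, unadjusted p = 0.00411, edgeR adjusted p = 0.0877, DESeq2 adjusted p = 0.0395). Hoxa3 was at 1.73 and 2.09 CPM in shControl and at 2.85, 3.21, 2.45 and 2.91 CPM with the shRNAs (log2 fold change 0.56, SE 0.21, unadjusted p = 0.0188, edgeR adjusted p = 0.197). Without cultured shControl replicate 2 the log2 fold change of Hoxa10 was 0.27, and without replicate 1 that of Hoxa3 was 0.43. Both missed the p threshold in these fits, which left 1 control library, so no p-value is given. With shRNA2 alone the unadjusted p of Hoxa3 was 0.0639. Marker lists also differed without overlap between shControl and the shRNAs in culture. HSC markers were at 2025 to 2062 against 2168 to 2264 CPM, CMP and multipotent progenitor markers at 550.6 to 551 against 726.6 to 762.7 CPM, and GMP markers at 157.5 to 164.3 against 188.1 to 242 CPM. Endothelial markers were also higher with the shRNAs (55.48 to 55.91 against 61.7 to 67.46 CPM), while erythroid markers (237.8 to 247 against 193.9 to 209.7 CPM) and stroma markers (28.58 to 35.66 against 21.93 to 25.66 CPM) were lower. Their part in the values of Hoxa10 and Hoxa3 was not tested.

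Hoxa2 was at 0.59 and 0.73 CPM in shControl and 0.78 to 1.33 CPM with the shRNAs (log2 fold change 0.63, SE 0.35, unadjusted p = 0.0867). With shRNA1 alone 2 members met the rule, and without shRNA2 replicate 1 there was 1. The shares of all genes meeting it in these fits are not given here. Hoxa9 stayed at 53.9 to 63.4 CPM with the shRNAs against 55.1 CPM (log2 fold change 0.04, 95% interval -0.10 to 0.19), and Hoxa7 gave 0.02 (95% interval -0.17 to 0.22). Hoxa5 (0.20), Hoxa4 (0.14) and Hoxa6 (-0.01) had unadjusted p-values from 0.308 to 0.973.

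After transplantation the knockdown again called no member (1.43% of 20350 genes met the rule upward and 0.811% downward), none had an unadjusted p below 0.05 in edgeR (5.59% of all genes did), and none was called by DESeq2. Across all genes, edgeR found 0 at an adjusted p below 0.05 in this comparison, and DESeq2 found 60. Hoxa3 was at 7.52 and 7.77 CPM with shControl and at 5.47, 7.43, 5.12 and 5.41 CPM with the shRNAs, every one of them below both controls (log2 fold change -0.39, SE 0.19, unadjusted p = 0.0722). HSC markers too were lower in every knockdown library (3253 to 3491 CPM) than in both controls (3577 to 3668 CPM), and their part in the Hoxa3 values was not tested. Hoxa9 was at 112.9 and 83.98 CPM with shRNA1, 106 and 117 CPM with shRNA2 and 101 and 107 CPM with shControl (log2 fold change 0.01, 95% interval -0.23 to 0.25). Hoxa10 was at 34.73 and 36.04 CPM with shRNA1 but 55.5 and 45.5 CPM with shRNA2, on both sides of the controls at 47.4 and 44.8 CPM. Hoxa7 was nearly flat at 35.2 to 36.4 CPM against 36.1 and 33.8 CPM. Without transplanted shControl replicate 2, 1 member met the rule.

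Hoxa3 thus pointed up with the knockdown in culture and down after transplantation. The difference of its log2 fold changes was -0.95 (SE 0.27, unadjusted p = 0.00318, edgeR adjusted p = 0.222 for the interaction), and at an unadjusted p below 0.05 there were 8.75% of all genes. No member had an interaction at an adjusted p below 0.05 by edgeR or DESeq2 (0.210% of all genes did by edgeR). The interaction of Hoxa10 was -0.44 (SE 0.22, unadjusted p = 0.0630).

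Genes that work with HOXA proteins were read in the same comparisons. Among 9 TALE cofactors, all tested with age, 2 rose in OHSCs (all genes 4.69%) and none fell, among them Pbx3 (29.7 to 70.5 CPM, log2 fold change 1.29). In transplanted over cultured controls 3 of 8 rose (all genes 13.7%), among them Meis1, the partner of HOXA9 in leukemia (423 to 721 CPM, 0.64), and Meis3 (0.61 to 4.68 CPM, 2.80). Of 7 tested among the progenitors, 2 fell in MEP relative to CMP, a share like the 29.2% of all genes, among them Meis1 from 163 to 2.17 CPM (log2 fold change -6.11), and 4 fell in GMP (all genes 10.5%), again with Meis1 (-2.54). Meis3 met the knockdown rule in culture (0.61 to 1.43 CPM, unadjusted p = 0.00255, edgeR adjusted p = 0.0641), where 2.45% of all genes met it upward, and no cofactor met it after transplantation. Against CMP, 7 of 9 cofactors were higher and 1 was lower in YHSCs (all genes 42.8% and 21.6%).

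Of 10 genes known as HOXA9 targets, 2 rose with age (all genes 4.69% higher and 2.83% lower), Id2 (22.9 to 55.9 CPM, log2 fold change 1.33) and Pim1 (93.8 to 148 CPM, 0.70), and Flt3, a cytokine receptor of early progenitors, fell (29.4 to 15.3 CPM, -0.90). Id2 also met the knockdown rule in culture (78.0 to 138 CPM, log2 fold change 0.80, edgeR adjusted p = 1.50e-05). In MEP, 8 of the 10 fell relative to CMP (all genes 29.2%), with Flt3 at -7.73 and Sox4 at -4.04, and in GMP 4 fell (all genes 10.5%). Transplanted over cultured controls (all genes 13.7% higher and 11.2% lower), 4 rose (Camk2d and Lmo2 with the smallest p) and 2 fell (Id2 and Igf1r). The target list was taken from general knowledge of HOXA9 and was not measured here. Flt3 is also among the markers of multipotent progenitors read here.

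Of 15 genes of the MLL, menin and DOT1L axis and 13 of the Polycomb complexes and their demethylases, none was called with age. The knockdown rule called none of them in either experiment. In transplanted over cultured controls (all genes 13.7% higher and 11.2% lower), 4 of the MLL axis rose, with Kmt2a itself at a log2 fold change of 0.74 (79.8 to 146 CPM) and Ash1l at 0.61. Of the Polycomb list 3 rose and 2 fell, with Ezh1 (1.17) and Cbx7 (1.15) up and Suz12 (-1.24) and Ezh2 (-0.81) down. In MEP relative to CMP, 2 of the MLL axis rose and 3 fell (all genes 17.5% and 29.2%), Mllt3 being higher (12.3 to 88.5 CPM) and Kmt2a lower (66.7 to 30.9 CPM), and 3 of the Polycomb list fell. In GMP 2 of each list fell (all genes 10.5%). In lists of 15 and 13 genes, counts this small set neither list apart from all genes in MEP or GMP.

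Other transcripts of the cluster summed to 22.6 to 25.2 CPM in YHSCs. Of 10 listed, none of the 4 tested was called with age. Hoxaas3, which shares exon bases with Hoxa3 as well as Hoxa7, fell in MEP relative to CMP (4.93 to 1.04 CPM, log2 fold change -2.12). In transplanted over cultured controls, 2 of 5 tested rose (all genes 13.7%), Hoxaas2 (0.80 to 2.72 CPM) and 5730596B20Rik (0.05 to 0.95 CPM), both antisense to Hoxa3. The latter also met the knockdown rule in culture (0.05 to 0.22 CPM, unadjusted p = 0.0442, edgeR adjusted p = 0.308). Of 6 genes flanking the cluster, none of the 5 tested was called with age, after either knockdown or between transplantation and culture. In MEP 3 of them fell (all genes 29.2%), including Snx10 (161 to 15.1 CPM) and Skap2 (184 to 22.4 CPM). For HoxB genes the count was 1 of 8 tested higher after transplantation (Hoxb5, 0.62), 0 of 8 after either knockdown and 2 of 3 lower in MEP than in CMP, against 13.7% of all genes higher after transplantation and 29.2% lower in MEP. Against CMP, all 8 tested HoxB genes were higher in YHSCs, as were 42.8% of all genes, with a median log2 fold change of 5.10, or 4.61 relative to the median gene.

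The chromatin of HSCs divided the cluster into a middle block and 2 ends. H3K4me3, the mark of active promoters, was given for YHSCs as the authors' signal in 13 peaks in or beside the cluster, 10 of them named for members. The Hoxa9 peak (36.5 and 38.4 in the 2 replicates, mean 37.5) ranked 19 of 33199 peaks, and that at the distal start of Hoxa3 (33.2 and 37.2) ranked 43. The peaks at Hoxa7 (29.2 and 35.7), Mir196b (31.1 and 33.6) and the proximal start of Hoxa10 (28.6 and 32.3) ranked 164, 171 and 370. Elsewhere in the cluster the signal was lower. It was 9.84 at Hoxa4, 8.34 at Hoxa2, 7.39 at the distal start of Hoxa10, 6.34 at Hoxa5 and 3.69 and 3.01 at the 2 Hoxa11 peaks. No H3K4me3 or H3K27ac peak lay over Hoxa6 itself.

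H3K27me3, the Polycomb mark, formed 2 domains in YHSCs that touch the members. The posterior one (chr6:52235000-52278999) covered Hoxa11, Hoxa13, Hottip and the distal part of Hoxa10, and its mean signal of 4.34 (4.29 and 4.39) ranked 1 of 55820 H3K27me3 peaks. The anterior one (chr6:52099000-52166999) covered Hoxa2 with a mean signal of 1.21 and ranked 762. Between them Hoxa3, Hoxa4, Hoxa5, Hoxa6, Hoxa7 and Hoxa9 lay free of it. The posterior domain, set on a grid of 1 kb bins, began just upstream of the proximal Hoxa10 start, so that start window and those of the distal Hoxa10 start, Hoxa11 and Hoxa2, whose sequences are printed above, overlapped both marks, H3K4me3 and H3K27me3, whereas the windows of Hoxa7 and of the region between Hoxa7 and Hoxa9 lay outside H3K27me3. Hoxa10 ranked second per kilobase with 60.6% of its body inside the domain, and Hoxa11, entirely inside it, was at the limit of detection.

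H3K36me3, a mark of transcribed gene bodies, was deposited as domains without a signal or a sample name. A domain of 54.0 kb (chr6:52162000-52216000) covered Hoxa2, Hoxa3, Hoxa4, Hoxa5 and Hoxa6 completely, and shorter ones of 3.0 and 6.0 kb lay over Hoxa9 and Hoxa10. The bodies of Hoxa7, Hoxa9 and Hoxa10 were inside such a domain over 20.5%, 37.4% and 60.1% of their length, and that of Hoxa11 over none. Since the transcript from the distal Hoxa3 start crosses Hoxa4, Hoxa5 and Hoxa6, the domain cannot be assigned to any one of these genes.

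**Figure D5:**
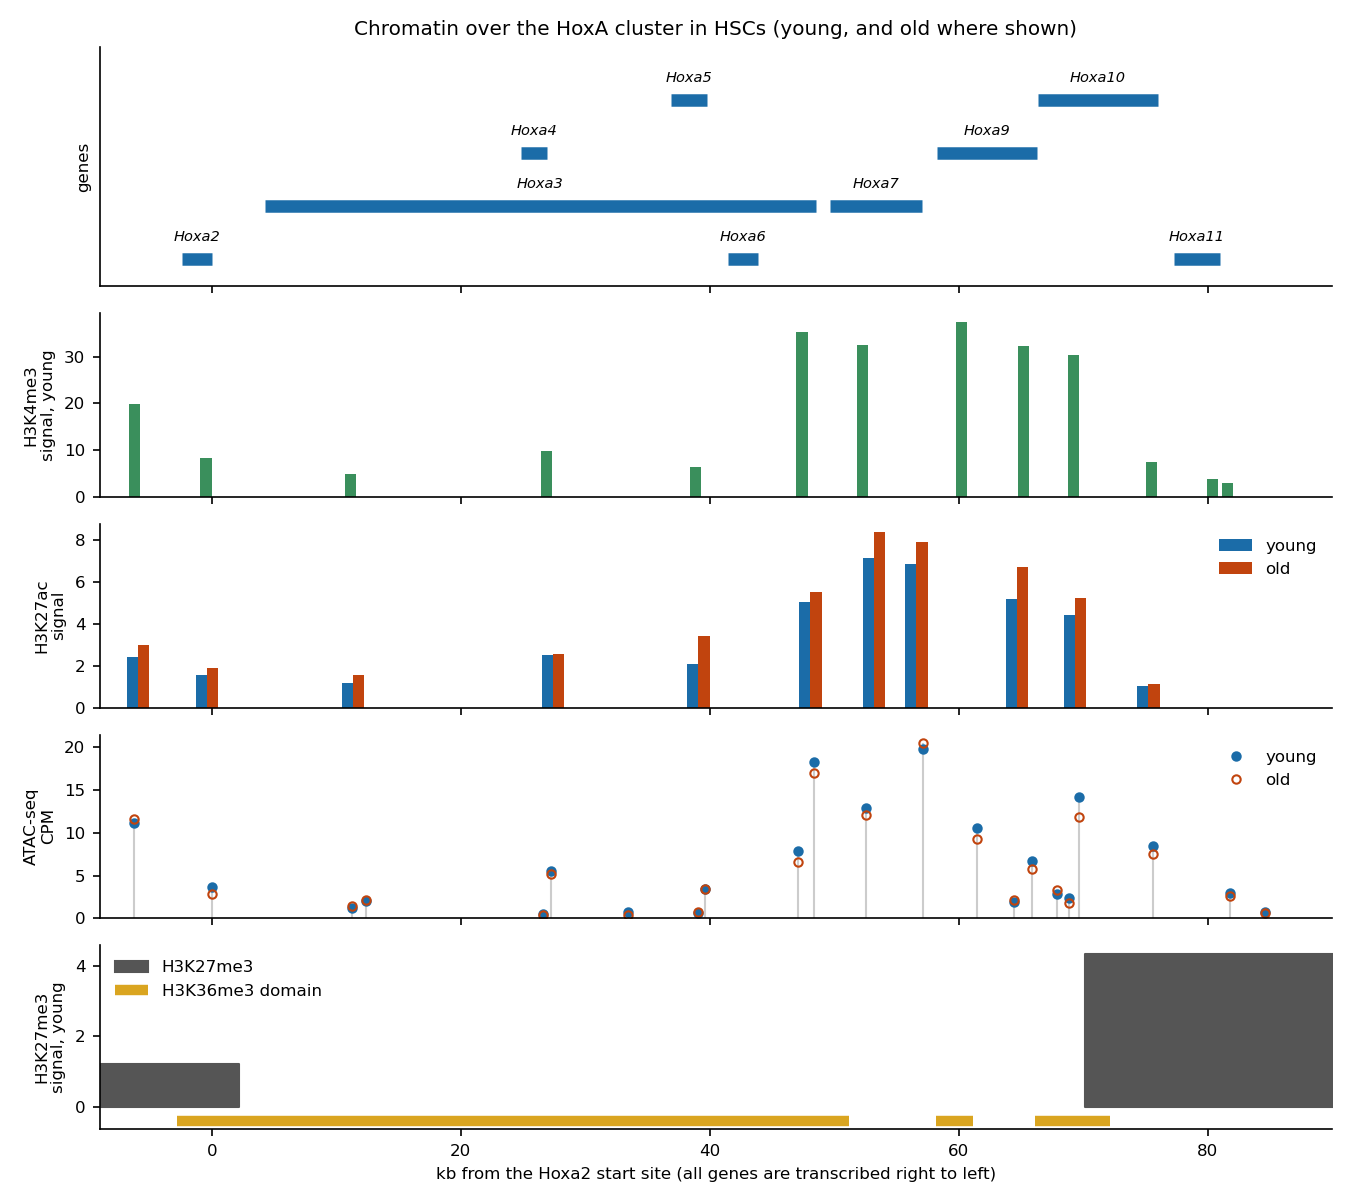
Chromatin over the HoxA cluster against distance from the Hoxa2 start in kb, with H3K4me3 signal (young), H3K27ac signal (young and old means), ATAC-seq mean CPM (young filled, old open) and H3K27me3 signal (young) above H3K36me3 domains. Bars mark peak centres and not peak widths. H3K4me3 and accessibility are highest between the distal Hoxa3 start and the proximal Hoxa10 start, and H3K27me3 lies on both sides, highest at the Hoxa11 end (4.34).

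ATAC-seq, which reads where transposase can enter the chromatin, was compared between 4 YHSC and 4 OHSC libraries (old replicates 5 to 8) of 15427933 to 26260337 counted reads. A further 4 old ATAC-seq tables match no sample described here and were not used. Of 127695 consensus regions, 22 lay over the members or within 5000 bases of them, and 17 of these had enough reads to be tested. Neither edgeR nor DESeq2 called any of them (adjusted p below 0.01 and more than 1.5-fold), whereas 10.1% of 89245 regions were more and 2.90% less accessible in OHSCs. At an unadjusted p below 0.05 there were 3 of the 17 regions (edgeR), against 42.6% of all regions, and in all 22 the ranges of the ages overlapped. The most accessible region was the one between Hoxa7 and Hoxa9 (chr6:52221469-52222479), at 19.0 to 21.3 CPM in YHSCs and 18.2 to 22.5 CPM in OHSCs (log2 fold change 0.03, SE 0.08). The distal Hoxa3 start (chr6:52212721-52213623) was at 17.2 to 19.6 CPM in YHSCs and 15.3 to 18.6 CPM in OHSCs.

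The region with the smallest p lay at the proximal Hoxa10 start (chr6:52233913-52235146), with 13.0 to 15.6 CPM in YHSCs and 10.9 to 13.0 CPM in OHSCs (log2 fold change -0.28, SE 0.09, edgeR adjusted p = 0.0154). It was the only one of the 17 at an adjusted p below 0.05, which 33.8% of all regions reached. The region at the Hoxa9 start (chr6:52226036-52226545) was at 10.2 to 11.4 CPM in YHSCs and 8.49 to 10.4 CPM in OHSCs (log2 fold change -0.20, SE 0.10, edgeR adjusted p = 0.129), and that at the Hoxa7 start (chr6:52217068-52217733) at 11.6 to 13.8 and 11.5 to 13.0 CPM (-0.11, SE 0.09). Hoxa2 (chr6:52164269-52165326) was at 3.32 to 4.27 CPM in YHSCs and 1.95 to 3.98 CPM in OHSCs (-0.38, SE 0.18, edgeR adjusted p = 0.1003). Estimates were lower in OHSCs in 12 and higher in 5 of the tested regions, from -0.45 to 0.20, with a median of -0.12 against -0.01 over all regions. Within 300 bases around their centres, 8 of the 22 regions held a GC box, found in 14.4% of all regions, 5 held a CTCF core (7.71%) and 5 a CCAAT box (30.9%). None held the RUNX motif (28.4%), 2 held MEIS (21.1%), and 1 each held HOX-PBX (4.45%), GATA (14.8%) and a TATA box (14.9%).

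H3K27ac, the mark of active promoters and enhancers, was compared in 2 YHSC and 2 OHSC libraries by the study's rule, a ratio of means above 1.5 with at least 1.2 between every pair of an old and a young library. None of the 7 peaks named for members met it, where 9.11% of 39557 peaks did upward and 2.27% downward, and limma, with no fold change asked for, called none at an adjusted p below 0.05, where it called 0.799% of all peaks higher and 0.0657% lower. Hoxa7 had the highest signal among them, at 8.10 and 6.17 in YHSCs and 8.66 and 8.05 in OHSCs (ratio 1.17). Hoxa3 was at 4.91 and 5.22 against 5.21 and 5.81 (ratio 1.09), and the proximal Hoxa10 peak at 4.87 and 3.95 against 5.08 and 5.41 (ratio 1.19). The Hoxa5 peak alone exceeded 1.5, at 2.65 and 1.47 in YHSCs and 4.19 and 2.62 in OHSCs (ratio 1.65), but its lowest pair was 0.99. Without YHSC replicate 1, 2 peaks met the rule, and without OHSC replicate 2, 1 did. Hoxa4 (1.01), Hoxa2 (1.23) and the distal Hoxa10 peak (1.08) had ratios nearer to 1. Other peaks lay over members without being named for them, and none had a ratio above 1.5. The Mir196b peak, over Hoxa9, was at 5.44 and 4.92 in YHSCs and 6.35 and 7.04 in OHSCs (ratio 1.29, lowest pair 1.17). A peak over Hoxa7 without a gene name was at 7.93 and 5.79 against 6.83 and 8.96 (ratio 1.15). The 5730596B20Rik peak, over Hoxa3, had a ratio of 1.33 (lowest pair 0.94). With 2 libraries in each age an exact permutation test could not reach p below 0.05, so none is given.

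The genes whose pattern was most like that of Hoxa9 are given as a description over 30 RNA-seq libraries of 9 groups. Likeness is Pearson's r of log2(CPM + 0.5) across libraries, which share their groups and cell types, among 29260 genes. The first 5 genes outside the cluster were Mir99ahg (r = 0.993), Gcnt2 (0.991), Trp53i13 (0.991), Gsap (0.990) and Fchsd2 (0.989). Of the members, Hoxa7 was the nearest (r = 0.943, rank 564), followed by Hoxa10 (0.917, rank 1085), Hoxa5 (0.915), Hoxa3 (0.889), Hoxa6 (0.865) and Hoxa2 (0.800), with Hoxa4 far behind (0.358). Many genes outside the cluster followed Hoxa9 more closely than its neighbours did.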

How the data were processed

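RNA-seq and ATAC-seq reads were counted and histone ChIP-seq was summarised by the authors before deposit. For RNA-seq, the deposited values are raw counts per gene (trimmed reads aligned to mm10 with STAR and counted with featureCounts on GENCODE M22). For ATAC-seq, the authors deposited read counts per consensus region (BWA, MACS). For histone marks, the deposited values are signal per peak, scaled by the authors to a common read number, and H3K36me3 is a list of domains. Columns of fold changes and p-values were not used. There were 8 columns with no matching sample, which were not used. Of these 4 were old ATAC-seq tables, so the age comparison of ATAC-seq rests on the other 4 old libraries, and old H3K4me3 and H3K27me3 are not analysed here. The labels and the methods name different RNA-seq kits, so the kit is not described.

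CPM was computed on the total of gene counts, after removal of 92 spike-in rows from the YHSC and OHSC tables. All genes passing filterByExpr were fitted with edgeR 4.0.16 (TMM, robust quasi-likelihood, R 4.3.3), and regions above 1.5 CPM in at least 4 libraries in the same way. Fold changes come from the TMM scale and differ slightly from ratios of CPM. P-values are two-sided, adjusted by Benjamini-Hochberg over all genes or regions tested, with the standard error taken as the log2 fold change over the root of the F statistic and 95% intervals from the normal distribution. DESeq2 1.42.0 and limma 3.58.1 (log2 of signal plus 0.1) were alternatives. Intervals and limits for low counts cover counting error only. The scripts were checked on simulated data. Gene positions came from GENCODE M21, a release next to that used for counting, on the same build.

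The members and gene lists were chosen with earlier results of these data known. Named genes were the members, the peaks and regions over them, the 5 other genes most correlated with Hoxa9, and from each list at most 2 called genes in each direction with the smallest p. Some genes that this rule names are not reported here.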

Additional observations from a re-analysis of the deposited data

Results flagged for a closer look

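Of 62 groups of 4 or 8 libraries examined, 5 held a library far from the others in its group, and chance alone marks about 1 in 20. The 3 genes marked did not share the library. Hoxa3 was at 14.65 CPM in YHSC replicate 2, above 12.39 to 12.77 CPM in the other YHSC libraries. Hoxa5 was at 18.37 CPM in YHSC replicate 1, and the others at 16.66 to 16.85 CPM. Hoxa10 was at 51.01 CPM in YHSC replicate 3, and the others at 46.2 to 46.84 CPM. In ATAC-seq, the region at the Hoxa9 start (chr6:52226036-52226545) reached 11.44 CPM in 1 YHSC library, and a small region in an exon of Hoxa9 (chr6:52229205-52229359) was at 1.852 CPM in 1 OHSC library, where the highest reached 2.346 CPM.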

How the results depend on the processing

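Over 25 counts of called members, regions or peaks and 396 alternatives, 378 stayed within 1.5 times the reported count and 18 moved. Many of these counts were 0, and a count that stayed at 0 is among the 378, so that number says little about stability. Shares of all genes under these alternatives are mostly not given, so a changed count cannot be set beside them. For the 42 single-member results that had passed their p threshold, 541 of 559 alternatives kept direction and side of the threshold, 18 kept the direction but missed the threshold, and none reversed. Members that had not passed it were not run singly under every alternative, and Hoxa7 in YHSCs against CMP is one whose direction turned relative to the median gene (0.17 to -0.32). The knockdown in culture, with 0 members called higher, gave 2 with shRNA1 alone and 2 at a fold change above 1.2, and 0 to 1 with single libraries left out. The knockdown after transplantation gave 0 to 1 higher with single libraries left out. Transplanted against cultured controls gave 2 higher at a fold change above 2, and with single libraries left out 3 to 5 higher and 0 to 1 lower. GMP against CMP, with 2 members lower, gave 1 with DESeq2, 4 at a fold change above 1.2 and 0 to 2 with single libraries left out. MEP against GMP gave 5 lower in the fit with the YHSC libraries. For H3K27ac, 1 member peak passed by the ratio of means alone, and 0 to 2 with single libraries left out.

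Correlations between the deviations of samples with the same replicate number ran from -0.1592 to 0.1435. The highest was that of CMP and GMP, and those of CMP and MEP (0.06309) and of GMP and MEP (0.03797) were also positive. In groups of 2 libraries both replicates give the same value, so this check cannot exclude that the numbers pair samples. With the replicate number as a block, GMP against CMP gave 1 member lower, since the adjusted p of Hoxa3 became 0.0693, and the replicate block moved no other count by over 1.5 times. A block could not be fitted for ATAC-seq, since the libraries of the ages share no replicate numbers.

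Taken relative to the median gene, an alternative chosen after seeing the data, the counts of members higher in YHSCs were 5 against CMP (Hoxa9 missed the fold change), 6 against GMP (Hoxa7 missed it) and 7 against MEP. Scaling with DESeq2 size factors put the median gene at 0.61, 0.79 and 1.14 in these comparisons. Depth limits Hoxa4 and Hoxa11 throughout, and Hoxa2 and Hoxa6 in GMP and MEP.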
